A study of Mus musculus with 20 samples.

Results

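A set of 40 genes of the cell cycle was followed through mouse heart ventricles that had lost, or kept, the fatty acid activating enzyme Acsl1, with or without rapamycin. The 40 members were taken by gene symbol from the 21705 rows of the deposited expression table, and all 40 were present. They comprise 28 genes of mitosis, 10 genes of DNA replication and deoxynucleotide supply, and the transcription factors E2f1 and Foxm1. Rows were matched by symbol, but the list of genes was chosen with earlier results of these data known.

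The study combined 2 genotypes with 2 injections in male mice of strain background C57Bl/J6, 5 hearts in each of 4 groups. In the knockout hearts (Acsl1H-/-) Acsl1 was silenced after tamoxifen, and the controls (Acsl1flox/flox) were littermates with floxed alleles. Mice of both genotypes received tamoxifen at 75 mg/kg on 4 days at an age of 6 to 8 weeks, so the controls had the tamoxifen too. Rapamycin, which blocks the kinase mTOR, was injected each day at 1 mg/kg for 2 weeks, and the other mice received its vehicle. Poly(A) RNA of the ventricles was sequenced from hearts taken 2 weeks after tamoxifen. The labels name neither the recombinase nor the promoter that drives it, and an effect of the recombinase itself cannot be told apart from the loss of Acsl1 if the controls lack it.

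A dividing cell licenses its DNA for copying in G1, copies it in S phase and separates the copies in mitosis. Cyclins bind and switch on cyclin-dependent kinases, and E2F and FoxM1 transcription factors raise the genes of S phase and of mitosis in turn. Adult cardiomyocytes have largely left the cycle, so transcripts of mitosis in an adult ventricle are scarce and can come from endothelial cells, fibroblasts, pericytes or immune cells as well as from muscle. In bulk tissue, fewer dividing cells and less of a transcript per cell cannot be told apart.

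RefSeq promoter windows, from 250 bases before to 50 bases after the annotated start on build GRCm38.p6, matched 33 of the 40 members by symbol. Those of Ccna2, Aurkb, Pbk, Kif20a, Tpx2, Mcm4 and Foxm1 were not matched. The upstream stretches of 3 members are shown because they carry letters that mitotic and replication promoters are known for: Prc1, which of the 3 members with the smallest p for genotype was the one with a window, Ccnb1 as another mitotic gene and Mcm5 as a replication gene. They lie at chr7:80294201-80294450 on the plus strand (Prc1), chr13:100786487-100786736 on the minus strand (Ccnb1) and chr8:75109259-75109508 on the plus strand (Mcm5). The capitals mark, on either strand, the CCAAT box, the cell cycle homology letters written TTTGAA in one form and TTCGAA in another, and the E2F letters TTTCCCGC, TTTGGCGC and TTTCGCGC.
Prc1: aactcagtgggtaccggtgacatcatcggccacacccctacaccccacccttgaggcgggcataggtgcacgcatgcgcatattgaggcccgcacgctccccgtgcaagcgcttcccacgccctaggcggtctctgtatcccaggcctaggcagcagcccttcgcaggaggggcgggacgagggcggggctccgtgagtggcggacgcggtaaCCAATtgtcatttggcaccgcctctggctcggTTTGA
Ccnb1: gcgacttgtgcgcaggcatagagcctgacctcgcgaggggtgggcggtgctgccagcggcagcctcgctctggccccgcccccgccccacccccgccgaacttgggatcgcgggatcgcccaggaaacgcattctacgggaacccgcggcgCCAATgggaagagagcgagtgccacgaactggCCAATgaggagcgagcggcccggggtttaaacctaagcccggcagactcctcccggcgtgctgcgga
Mcm5: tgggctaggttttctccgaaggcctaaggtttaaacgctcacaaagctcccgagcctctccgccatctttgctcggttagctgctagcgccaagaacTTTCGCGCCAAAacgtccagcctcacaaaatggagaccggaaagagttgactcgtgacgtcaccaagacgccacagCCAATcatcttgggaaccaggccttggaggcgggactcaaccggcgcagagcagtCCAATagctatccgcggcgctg
In Prc1 the TTTGAA run crosses the start site, so its last letter lies past the stretch shown. In Mcm5 the capitals join TTTCGCGC with an overlapping TTTGGCGC on the other strand. CCAAT was found in the 300-base windows of 26 of 33 members (78.8%) and of 37.9% of the 27025 windows of all genes. The cell cycle homology letters were found in 20 of 33 members (60.6%) and in 19.4% of all windows. The E2F letters were found in 6 of 33 members (18.2%), all of them replication genes except Cdk1, and in 1.9% of all windows. These matches describe letters in a window and were not set against the expression values.

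The implied depth was 11.5 to 21.1 M (mega) reads per library. Acsl1 itself ranged from 6373 to 13431 in control and from 740.5 to 1682 in knockout hearts under vehicle, and from 10518 to 16661 against 630.6 to 1950 under rapamycin, and no library went against its genotype label. Summed transcripts of 8 ventricular muscle markers lay between 1501077 and 1865159 in every library, so markers of the labelled tissue were present in all. The transcript-length score of a library is the median log2 level of long transcripts minus that of short ones, each gene centred on its mean. Control vehicle hearts 1 and 3 stood apart from the other 18 libraries: their score was -1.15 and -1.29, against -0.48 to 0.63 elsewhere. The difference between knockout and control under vehicle is therefore also given without that pair for the genes shown heart by heart.

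Values are the deposited normalised signals, whose upper quartile was nearly the same in all libraries (SD 0.936 around a mean of 999.1). Differences are on the log2(value + 1) scale, and adjusted p-values come from 1 limma model of all 20 libraries, adjusted by the Benjamini-Hochberg method over 13548 tested genes. A gene was tested if it reached 10 in at least 5 libraries, which 36 of the 40 members did. The checkpoint kinases Ttk and Bub1, the kinase Melk and the kinetochore motor Cenpe were not tested. Ttk had a median of 1 implied read per library, Bub1 2, and Melk and Cenpe 3.5 each.

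Per kilobase of transcript the members covered a wide range of levels, and 8 of the 10 replication and deoxynucleotide genes were the most abundant. Pcna, the sliding clamp of DNA polymerase, had a median over libraries of 580 per kilobase. Mcm2 to Mcm7, the 6 subunits of the replicative helicase, followed at 31.7 to 80.6 per kilobase and Rrm2, a subunit of ribonucleotide reductase, at 30.8. Every mitotic gene lay below these 8, while Tyms (12.5) and Cdc6 (2.87) lay among the mitotic genes. Cdc20, which activates the anaphase-promoting complex, had 14.4 per kilobase, Ccna2 11.2, Mki67 4.07 and Ccnb1 2.57. Implied reads per library had a median of 587.5 for Pcna, 26 for Mki67 and 3.5 for Ccnb1, and these are estimates from the most frequent low value of each library. The standard deviation within groups, on the log2 scale, had a median of 0.77 over 24 tested mitotic genes, 0.28 over the 10 replication genes and 0.31 over all tested genes.

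**Figure D1:**
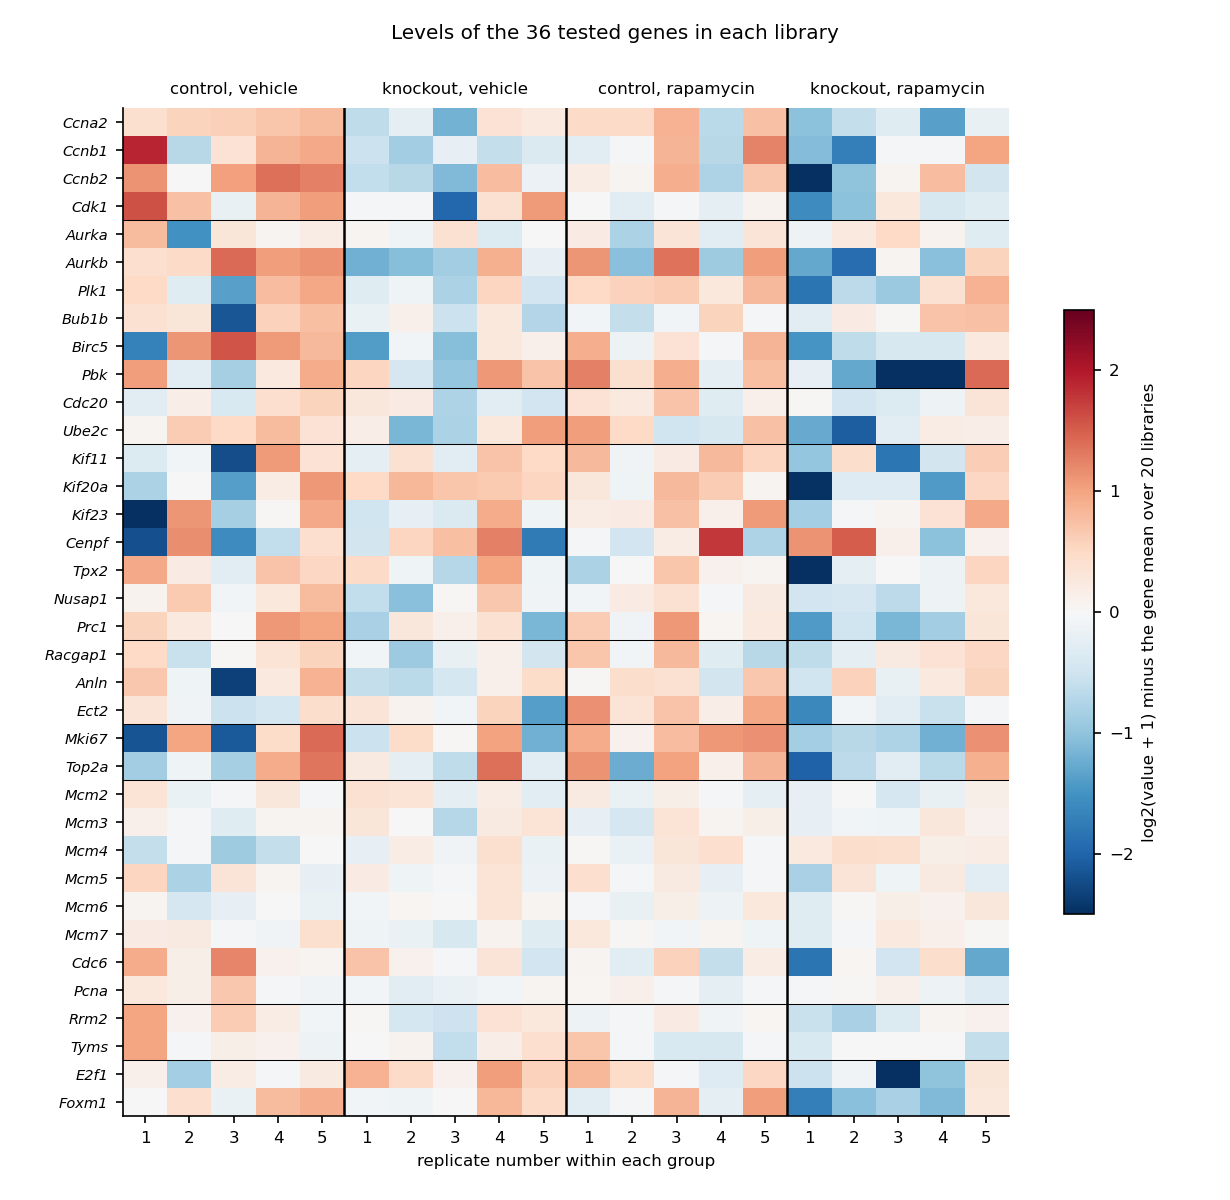
Level of each of the 36 tested genes (rows, by role) in each of the 20 libraries (columns), as log2(value + 1) minus the mean of the gene, with colours that saturate at the ends of the scale. The mitotic rows vary from heart to heart, with knockout rapamycin heart 1 lowest in 13 of 24 and heart 5 highest in 18 of 24 mitotic genes of that group, while the Mcm and Pcna rows are paler.

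In hearts without Acsl1, mitotic transcripts were mostly lower than in controls, but no member passed the adjusted threshold of 0.05 in any of the 7 comparisons. Cyclins A2, B1 and B2, Cdk1, the cytokinesis protein Prc1, the chromosomal passengers Aurkb and Birc5, and the ubiquitin-conjugating enzyme Ube2c had lower means in knockout hearts in both drug arms. Medians over the replication genes lay closer to 0, with Mcm4 higher and Rrm2, Cdc6 and Tyms lower in both arms. Under vehicle, 28 of the 40 members were lower in the knockout, and under rapamycin 34 were, with 27 lower in both arms. The median difference over all 40 was -0.22 under vehicle and -0.60 under rapamycin.

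Among the 36 tested members, 0 were called under vehicle, where 0.244% of all tested genes were (33 of 13548), and 0 under rapamycin, where 0.0221% were (3 genes). With genotype averaged over both drug arms, 0 members were called and 0.443% of all genes were (60 genes). At an unadjusted limma p under 0.05, 8 of 36 members passed under vehicle (22.2%), below the 31.8% of all genes. Of these, 7 were lower in the knockout (19.4%, against 12.1% of all genes). Both vehicle shares of all genes come from a comparison that holds control vehicle hearts 1 and 3, which stood apart from the other libraries. Under rapamycin 7 members passed (19.4%), against 2.97% of all genes, and all 7 were lower, against 1.72% of all genes. Averaged over the arms 13 members passed (36.1%), against 19.1% of all genes, and 12 were lower (33.3%, against 8.73%). These shares describe the tested members only. A scarce gene could enter the test through the groups in which it was high, as Ccnb1 and Pbk did with 6 libraries at 10 or more. Ccnb2, with 11 such libraries, and Aurkb, Birc5 and Plk1, with 10 each, also entered mainly through control hearts. The lower direction of these genes is partly set by the filter, so they lend no support to the counts of lower genes. Leaving out 1 library at a time moved the unadjusted count between 3 and 10 under vehicle, with 3 when knockout vehicle heart 1 was left out and 4 or 5 without knockout vehicle hearts 2 or 3 or control vehicle hearts 1 or 4. Under rapamycin it moved between 5 and 13, with 13 when knockout rapamycin heart 5 was left out, and it was 11 without control vehicle hearts 1 and 3. The share of all genes that passed was not counted with libraries left out, so these counts only show how far they moved.

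Medians were lower over the mitotic than over the replication genes, which is a description without a test. Over 24 tested mitotic genes the median difference between knockout and control was -0.31 under vehicle, with 18 lower, and -0.90 under rapamycin, with 21 lower. Over the 10 replication genes it was -0.10 under vehicle, with 5 lower, and -0.08 under rapamycin, with 7 lower. Counts at an unadjusted limma p under 0.05 did not follow that order under vehicle. There 5 of 24 mitotic genes (20.8%) and 3 of 10 replication genes (30.0%, Mcm4, Mcm7 and Pcna) passed, against 31.8% of all genes. The shares that passed as lower were 20.8% and 20.0%, against 12.1% of all genes. Under rapamycin 5 of 24 mitotic and 0 of 10 replication genes passed, against 2.97% of all genes. Among the mitotic genes that passed were Ccnb1, Ccnb2 and Aurkb under vehicle and Pbk under rapamycin. Their direction is partly set by the filter, so they lend no support to these counts. Over all tested genes the median was 0.072 under vehicle, with 43.5% lower, and -0.020 under rapamycin, with 55.7% lower. Without control vehicle hearts 1 and 3, the median over the 36 members under vehicle was -0.39 with 27 lower, against -0.19 with 24 lower when all 20 libraries were used. By role, the spindle genes then had -0.37, against 0.46, and the chromosome genes Mki67 and Top2a -0.82, against 0.11. Kinase and checkpoint genes had -0.73, against -0.27, and the cyclin and Cdk1 group -0.98, against -1.06. The gap between the arms in the mitotic medians thus depends in part on that pair.

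**Figure D2:**
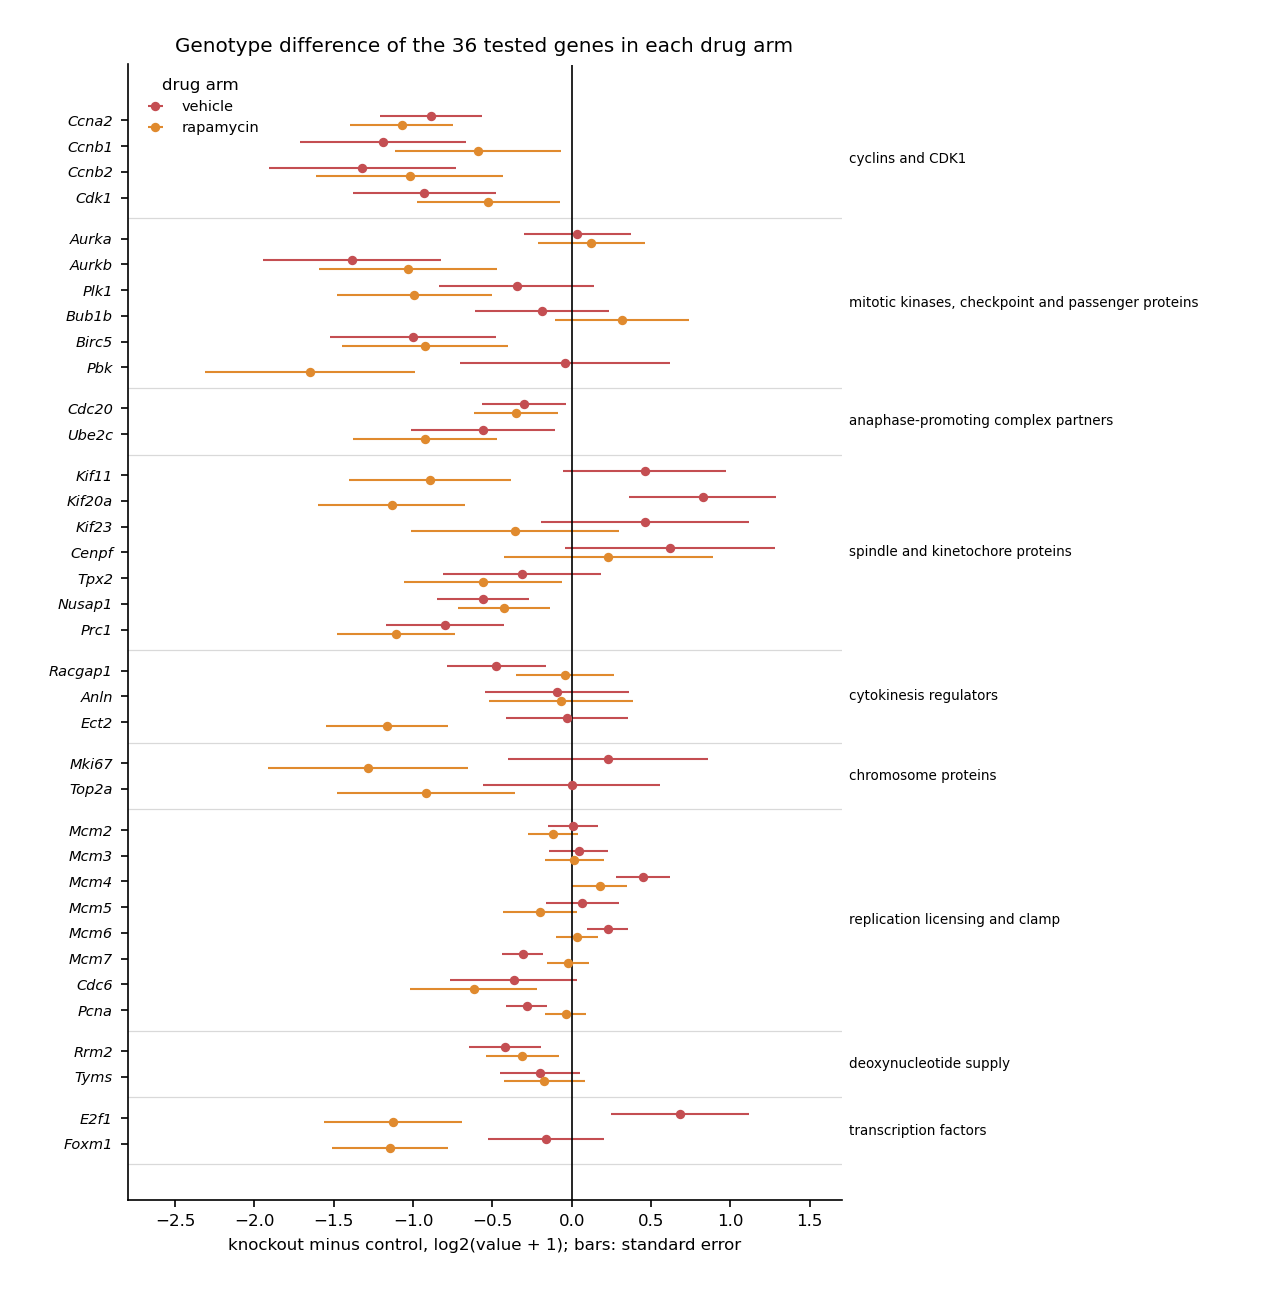
Difference between knockout and control in log2(value + 1) for the 36 tested genes, grouped by role, under vehicle (red) and rapamycin (orange), with bars of 1 standard error. The 4 cyclin and Cdk1 rows lie below 0 in both arms. The Mcm rows lie closer to 0 than those 4, though under vehicle Mcm4 lies above 0 and Mcm7 below it. Kif20a and E2f1 lie above 0 under vehicle and below 0 under rapamycin.

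The 4 members of the cyclin and Cdk1 group were lower in knockout hearts in both arms, with a median difference of -1.06 under vehicle and -0.81 under rapamycin. At an unadjusted limma p under 0.05, 3 of 4 passed under vehicle, 1 of 4 under rapamycin and 4 of 4 averaged, against 31.8%, 2.97% and 19.1% of all genes, and 0 of 4 passed after adjustment. Of these 4, Ccnb1 entered the test through 6 libraries at 10 or more, of which 5 were control hearts, so its direction is partly set by the filter and adds nothing to the count. Ccnb2 reached 10 in 11 libraries, most of them control hearts, so the same limit holds for it. With control vehicle hearts 1 and 3 left out, 1 of 4 passed under vehicle and 3 of 4 averaged, with medians of -0.98 and -0.89. The share of all genes that passed was not counted in that setting, so these counts have no background beside them.

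Ccna2 encodes cyclin A2, which drives S phase and the entry to mitosis. Its value was 35.3, 39.55, 40.6, 43.8 and 46.8 in control vehicle hearts 1 to 5 and 16.9, 22.9, 11.2, 34.6 and 31.6 in knockout vehicle hearts. Under rapamycin it was 37.6, 37.6, 49.8, 16.5 and 45.02 in control and 12.7, 17.3, 21.4, 9.76 and 23.5 in knockout hearts. Every knockout vehicle heart lay below every control vehicle heart, while under rapamycin control heart 4 lay among the knockout hearts. Among the 36 tested members this lack of overlap held for Ccna2 alone under vehicle (1 of 36), against 0.871% of all tested genes lower without overlap. The difference was -0.89 (SE 0.32, adjusted p 0.106) under vehicle and -1.07 (SE 0.32, adjusted p 0.9996) under rapamycin. With genotype averaged it was -0.98 (SE 0.23, adjusted p 0.058), the smallest adjusted p of any member in any comparison. Alternative settings gave that averaged difference adjusted p-values from 0.0222 to 0.154. It passed the threshold with a pseudocount of 10, quantile normalization, median-ratio rescaling and array weights, and without knockout vehicle heart 4 (adjusted p 0.0453) or control rapamycin heart 4 (adjusted p 0.0231). It did not pass without control vehicle hearts 1 and 3 (adjusted p 0.154) or with the transcript-length score as a covariate (adjusted p 0.1335). Under vehicle alone it passed without knockout vehicle heart 5 (adjusted p 0.0455). Within pools 1 to 4, as the labels number them, with 1 or 2 hearts of each group in a pool, the difference was -1.17, -0.76, -1.06 and -0.43 under vehicle and -1.08, -0.93, -1.18 and -1.50 under rapamycin. Without control vehicle hearts 1 and 3 the difference under vehicle was -0.96 (adjusted p 0.689).

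Ccnb1 encodes cyclin B1, the partner of Cdk1 at the entry to mitosis. It was 29.02, 3.92, 9.28, 13.4 and 14.5 in control and 4.49, 3.37, 5.96, 4.32 and 5.19 in knockout hearts under vehicle. With rapamycin the control hearts had 5.61, 6.8, 13.5, 3.94 and 17.8 and the knockout hearts 2.755, 1.435, 6.87, 6.87 and 14.8. Knockout vehicle hearts stayed within a narrow low range that the lowest control heart shared, and control vehicle heart 1 was the highest of all. The difference was -1.19 (SE 0.52, adjusted p 0.133) under vehicle and -0.59 (SE 0.52, adjusted p 0.9996) under rapamycin, from a median of 3.5 implied reads, and under vehicle it was -0.88 without control vehicle hearts 1 and 3.

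Ccnb2, cyclin B2, had means of 20.9 ± 6.6 in control and 8.3 ± 5.29 in knockout hearts under vehicle (SD, n = 5), and of 12.35 ± 5.36 and 7.72 ± 6.49 under rapamycin. Its averaged genotype difference was -1.17 (SE 0.42, adjusted p 0.211), and knockout rapamycin heart 1 was listed at 0.

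Cdk1, the kinase that cyclins A and B activate to start mitosis, was 58.04, 31.4, 16.2, 34.3 and 39.2 in control vehicle hearts and 17.96, 17.98, 3.98, 24.5 and 39.8 in knockout vehicle hearts. In rapamycin-treated hearts it was 18.7, 15.3, 17.96, 15.8 and 19.6 in controls and 5.51, 8.61, 22.3, 13.75 and 14.8 in knockouts. The knockout ranges overlapped those of the controls in both arms, and the control rapamycin hearts were the most alike. Its difference was -0.93 (SE 0.45, adjusted p 0.161) under vehicle, or -0.997 without control vehicle hearts 1 and 3, and -0.53 (SE 0.45, adjusted p 0.9996) under rapamycin. Rapamycin against vehicle in controls gave -0.90 (SE 0.45, adjusted p 0.337), or -0.96 without that pair, and this comparison shares the control vehicle hearts with the knockout difference under vehicle.

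Among the kinases and checkpoint proteins, 5 of 6 tested members were lower in the knockout under vehicle and 4 of 6 under rapamycin, and 0 were called. Aurkb, the Aurora B kinase of the chromosomal passenger complex that corrects spindle attachments, was 11.2, 11.8, 23.2, 17.9 and 18.9 in control and 2.99, 3.37, 3.98, 15.8 and 6.92 in knockout hearts under vehicle. Under rapamycin its values were 18.7, 3.4, 22.45, 3.94 and 17.8 in control and 2.755, 1.435, 8.59, 3.44 and 12.5 in knockout hearts. Knockout vehicle heart 4 lay within the control range and the other 4 knockout vehicle hearts below it, while under rapamycin control hearts 2 and 4 were as low as the knockouts. The difference was -1.39 (SE 0.56, adjusted p 0.118) under vehicle, -1.03 (SE 0.56, adjusted p 0.9996) under rapamycin and -1.21 (SE 0.40, adjusted p 0.181) averaged, and without control vehicle hearts 1 and 3 it was -1.375 under vehicle and -1.20 averaged. Birc5, or survivin, another member of that complex, had an averaged difference of -0.96 (SE 0.37, adjusted p 0.226). Aurka, the Aurora A kinase of the spindle poles, had means of 26.7 ± 12.4 and 24.5 ± 4.79 (SD, n = 5) in control and knockout hearts under vehicle and a difference of 0.034 (SE 0.34, adjusted p 0.95). Bub1b, the spindle checkpoint protein BubR1, likewise gave -0.19 (SE 0.42, adjusted p 0.77) under vehicle and 0.32 (SE 0.42, adjusted p 0.9996) under rapamycin. The polo kinase Plk1, which acts throughout mitosis, gave -0.35 (SE 0.49, adjusted p 0.629) under vehicle and -0.99 (SE 0.49, adjusted p 0.9996) under rapamycin. Pbk, a mitotic kinase with a median of 4 implied reads, had the lowest fitted difference under rapamycin, -1.65 (SE 0.66, adjusted p 0.9996), with knockout hearts 3 and 4 listed at 0. Aurkb, Birc5 and Plk1 reached 10 in 10 libraries each and Pbk in 6, most of them control hearts. The direction of these 4 genes is therefore partly set by the filter.

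Both partners of the anaphase-promoting complex, which ends mitosis by marking cyclins for destruction, were lower in the knockout in both arms without passing the threshold. Ube2c had an averaged difference of -0.74 (SE 0.32, adjusted p 0.249), and Cdc20 of -0.33 (SE 0.19, adjusted p 0.301). The untested Ttk, Bub1, Melk and Cenpe had means of 2.08, 5.20, 7.44 and 6.55 in control vehicle hearts. In knockout vehicle hearts they were 1.96, 2.5, 4.26 and 6.25. With rapamycin they were 4.20, 5.79, 6.75 and 5.79 in control and 0.68, 1.31, 4.34 and 2.40 in knockout hearts, and these levels rest on very few reads.

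The 7 tested spindle and kinetochore genes did not share a direction under vehicle, where 3 were lower and 4 higher in the knockout. Without control vehicle hearts 1 and 3, 6 of 7 were lower under vehicle. Under rapamycin 6 of 7 were lower. Prc1 bundles the microtubules of the central spindle, where cytokinesis begins. Its value was 24.55, 19.6, 16.2, 35.8 and 33.35 in control and 8.98, 20.2, 17.9, 21.6 and 6.92 in knockout vehicle hearts, and 26.2, 15.3, 35.9, 17.1 and 19.6 and 5.51, 11.4, 6.87, 8.59 and 20.45 in control and knockout rapamycin hearts. Knockout hearts 1 and 5 under vehicle and hearts 1 to 4 under rapamycin lay below every control heart of their arm. The difference was -0.80 (SE 0.37, adjusted p 0.148) under vehicle, -1.11 (SE 0.37, adjusted p 0.9996) under rapamycin and -0.95 (SE 0.26, adjusted p 0.115) averaged. The averaged difference had adjusted p-values from 0.0434 to 0.221 over the alternatives and passed with quantile normalization and with array weights. It did not pass without control vehicle hearts 1 and 3 (adjusted p 0.221) or with the transcript-length score as a covariate (adjusted p 0.0523). The Prc1 difference under vehicle was -0.9997 without control vehicle hearts 1 and 3. Within pools 1 to 4 the Prc1 difference was -1.62, 0.04, -0.50 and -0.60 under vehicle and -1.13, -1.40, -2.23 and -0.52 under rapamycin.

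Kif20a, a kinesin of the central spindle, had a different pattern. It was 12.3, 22.1, 7.89, 25.4 and 47.9 in control and 31.7, 40.3, 36.3, 35.4 and 32.7 in knockout vehicle hearts. Under rapamycin it was 27.03, 20.4, 39.6, 34.9 and 23.35 in control and 3.2, 17.6, 17.5, 7.68 and 32.1 in knockout hearts. Knockout vehicle hearts were the most even group and above all but 1 control vehicle heart, and 4 of 5 knockout rapamycin hearts lay below every control rapamycin heart. The difference between knockout and control was 0.83 (SE 0.46, adjusted p 0.213) under vehicle and -1.14 (SE 0.46, adjusted p 0.9996) under rapamycin. Without control vehicle hearts 1 and 3, which had the lowest values of their group, the difference under vehicle was 0.22.

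Cenpf and Mki67, the 2 longest members, were lowest of their group in the pair of control vehicle hearts that stood apart. Cenpf, a kinetochore protein with a transcript of 11130 nt, was 17.9, 192.5, 27.8, 55.2 and 115 in control vehicle hearts, and hearts 1 and 3 were the lowest of that group. It gave 0.62 (SE 0.66, adjusted p 0.513) under vehicle and 0.23 (SE 0.66, adjusted p 0.9996) under rapamycin. Without control vehicle hearts 1 and 3 Cenpf was lower in the knockout under vehicle, as were 6 of the 7 spindle genes, all but Kif20a. The remaining spindle genes were Kif11 and Kif23, kinesins of spindle and midzone, and Tpx2 and Nusap1, which organise spindle microtubules. Averaged over the arms they gave differences of -0.22, 0.052, -0.44 and -0.49, and the adjusted p was lowest for Nusap1 at 0.242. Without control vehicle hearts 1 and 3 all 7 spindle genes, Kif23 and Cenpf among them, were lower averaged over the arms.

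Mki67, which encodes the proliferation antigen Ki-67 that coats mitotic chromosomes, has a transcript of 10061 nt. Its value was 6.7, 66.7, 6.96, 46.2 and 89.99 in control and 22.5, 46.1, 33.8, 67.7 and 13.8 in knockout vehicle hearts. Under rapamycin it was 63.55, 35.7, 57.2, 70.98 and 74.7 in control and 17.9, 20.1, 18.9, 13.75 and 73.9 in knockout hearts. Control vehicle hearts 1 and 3 had the lowest values of all, and under rapamycin 4 of 5 knockout hearts lay below every control heart while heart 5 was at the top of the control range. The difference was 0.23 (SE 0.63, adjusted p 0.813) under vehicle and -1.28 (SE 0.63, adjusted p 0.9996) under rapamycin. Without control vehicle hearts 1 and 3 the direction under vehicle turned, to -1.01. With the transcript-length score as a covariate, an alternative chosen after seeing the data, it was -1.17 (adjusted p 0.3) under vehicle and -1.54 (adjusted p 0.131) under rapamycin. With genotype averaged, Mki67 then had a difference of -1.35 and an adjusted p of 0.0274, against -0.53 (SE 0.44, adjusted p 0.455) without the covariate. Within pools 1 to 4 the difference under rapamycin was -1.61, -1.44, -1.55 and -1.19, and under vehicle it was 0.30, -0.52, 1.51 and -0.41.

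Top2a, the topoisomerase that untangles sister chromatids, was 13.4, 23.5, 13.9, 49.2 and 65.3 in control and 29.9, 21.35, 15.9, 67.7 and 20.8 in knockout vehicle hearts. In the rapamycin arm it was 56.1, 10.2, 51.6, 27.6 and 46.3 in control and 5.51, 15.8, 20.6, 15.5 and 47.7 in knockout hearts. Groups overlapped in both arms, and knockout hearts 4 under vehicle and 5 under rapamycin were far above the rest of their groups. The difference was -0.00095 under vehicle (SE 0.56, adjusted p 0.999), or -0.63 without control vehicle hearts 1 and 3, and -0.92 (SE 0.56, adjusted p 0.9996) under rapamycin. The regulators of the cleavage furrow Racgap1, Anln and Ect2 gave averaged differences of -0.26, -0.081 and -0.60. Ect2, the exchange factor that switches on RhoA for cytokinesis, was 24.3, 13.6, 17.96, 11.8 and 21.35 in control and 2.755, 10.04, 8.59, 6.87 and 10.2 in knockout hearts under rapamycin. Its rapamycin groups did not overlap, which held for 1 of 36 members against 0.546% of all genes lower without overlap, and the difference was -1.17 (SE 0.39, adjusted p 0.9996).

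**Figure D3:**
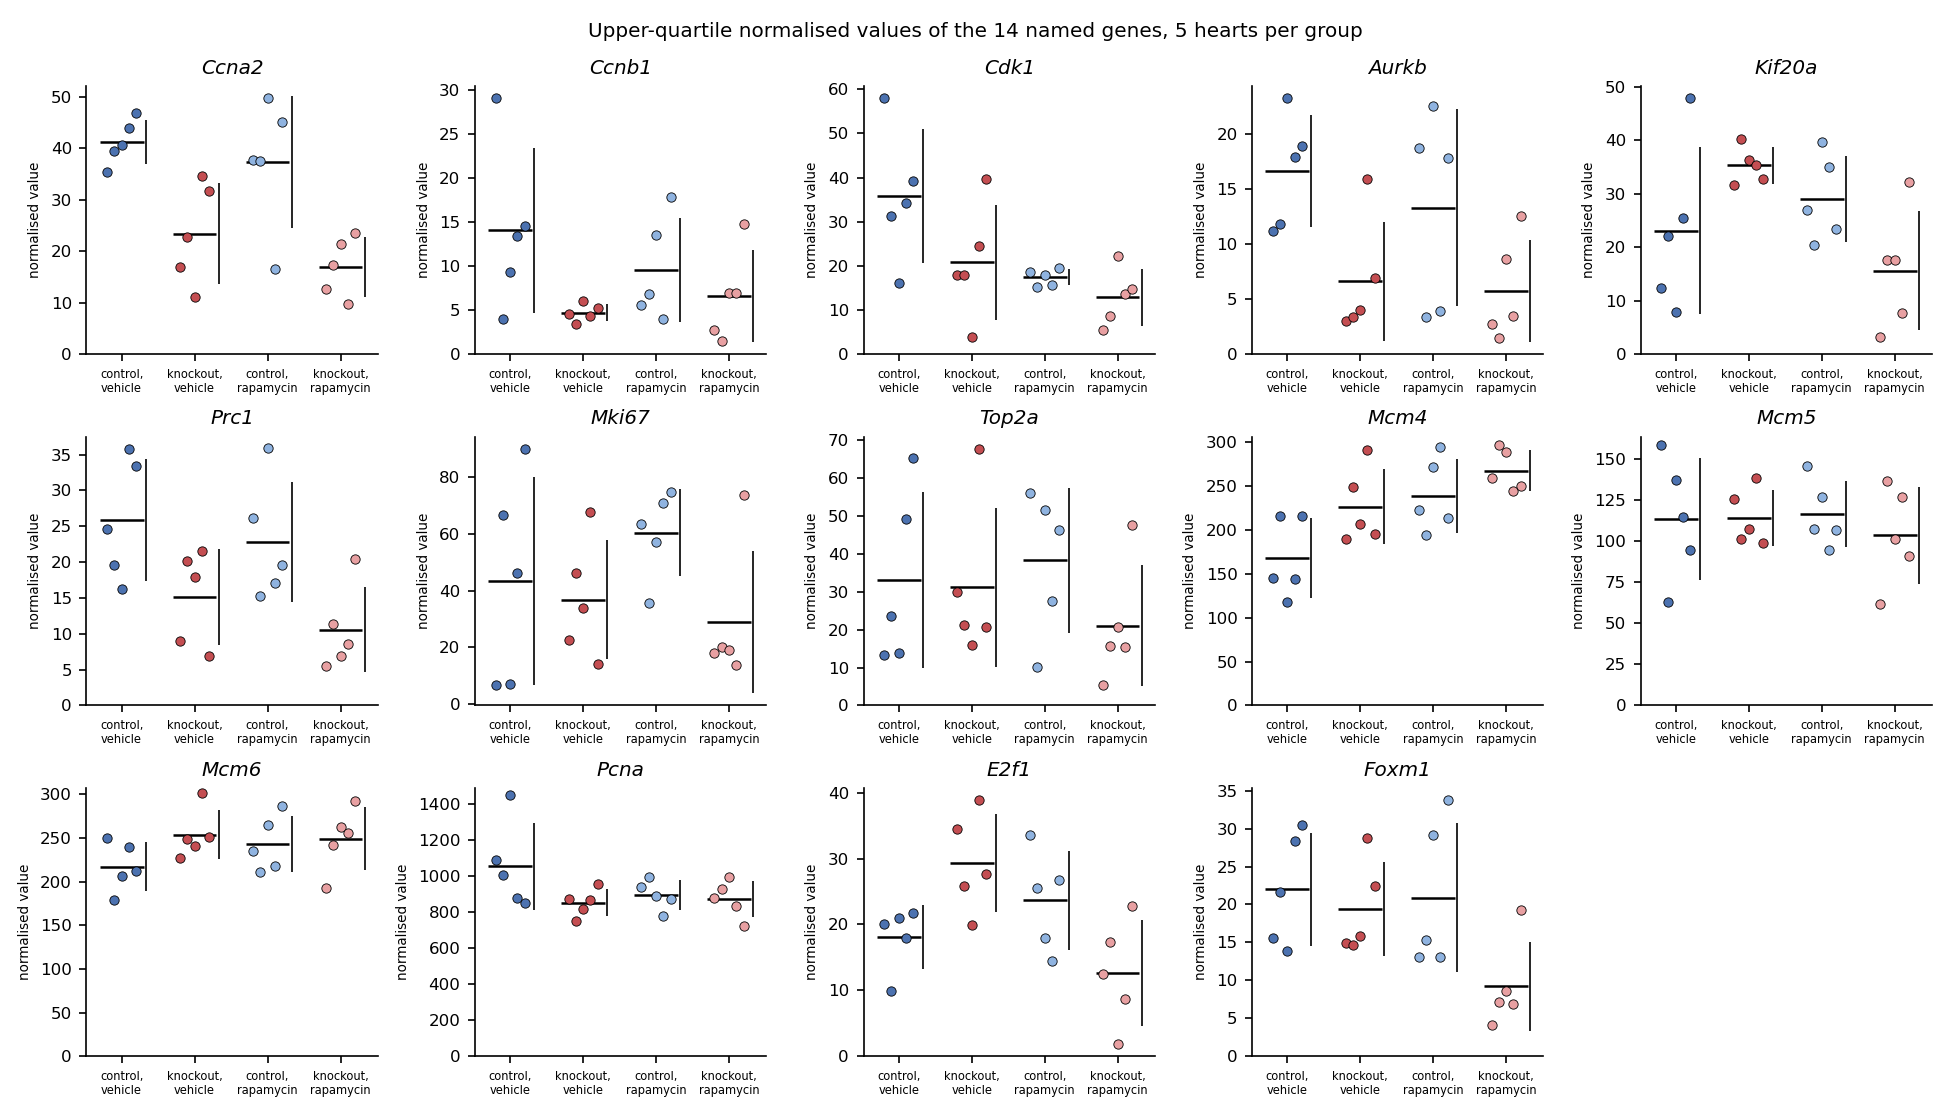
Normalised value in each heart (points) of 14 genes in the 4 groups, with the group mean (horizontal line) and 1 SD on either side (vertical line), n = 5 per group. The knockout vehicle points of Ccna2 lie below all control vehicle points, and 1 heart lies far above the rest for Mki67 under knockout rapamycin and for Top2a under knockout vehicle.

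Among the replication genes Pcna, Mcm5 and Mcm6 had values that overlapped in all groups, while the group means of Mcm4 ran from 168 in control vehicle to 268 in knockout rapamycin hearts, those of Rrm2 from 88.3 to 54.4 and those of the scarce Cdc6 from 18.98 to 9.197. Pcna was 1092, 1006, 1455, 881 and 855 in control and 874, 752, 817, 870 and 960.2 in knockout vehicle hearts, and 944, 997, 891, 779 and 875 and 879, 933, 998, 838.5 and 727 in control and knockout rapamycin hearts. Control vehicle heart 3 stood highest, and all 4 groups overlapped. The difference was -0.28 (SE 0.13, adjusted p 0.141) under vehicle and -0.039 (SE 0.13, adjusted p 0.9996) under rapamycin. Without control vehicle hearts 1 and 3 the difference under vehicle was -0.0977.

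Mcm4, a helicase subunit, was the 1 member with an unadjusted p under 0.05 in the other direction. Its value was 145, 216, 118, 145 and 216 in control and 190.1, 248, 207, 291 and 195.5 in knockout vehicle hearts. With rapamycin it was 222, 194, 272, 294 and 213.5 in control and 259, 297, 289, 244 and 250 in knockout hearts. Control vehicle hearts 1, 3 and 4 were the lowest of all, and hearts 2 and 5 lay within the range of the other groups. The knockout difference was 0.45 (SE 0.17, adjusted p 0.11) under vehicle and 0.17 (SE 0.17, adjusted p 0.9996) under rapamycin. It was 0.55 with an adjusted p of 0.0377 without control vehicle heart 5, and 0.24 without control vehicle hearts 1 and 3.

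Mcm5 was 158.5, 62.8, 137, 115 and 94.3 in control and 126, 101, 107, 138 and 98.6 in knockout vehicle hearts. In rapamycin-treated hearts it was 146, 107, 127, 94.6 and 107 in controls and 61.98, 136, 101, 127 and 90.9 in knockouts. All 4 groups overlapped, and the difference was 0.066 (SE 0.23, adjusted p 0.855) under vehicle, or 0.36 without control vehicle hearts 1 and 3, and -0.20 (SE 0.23, adjusted p 0.9996) under rapamycin. Mcm6 likewise was 250, 178.5, 206.5, 239.9 and 212 in control and 227.5, 248, 241, 301 and 251 in knockout vehicle hearts. It was 235.5, 211, 265, 218 and 286.5 in control and 193, 242.5, 263, 256 and 292 in knockout rapamycin hearts. Its groups overlapped too, and the difference was 0.23 (SE 0.13, adjusted p 0.227) under vehicle, or 0.27 without that pair, and 0.032 (SE 0.13, adjusted p 0.9996) under rapamycin. Mcm2, Mcm3 and Mcm7 gave 0.01, 0.043 and -0.31 under vehicle, and -0.12, 0.016 and -0.024 under rapamycin. Cdc6, which loads the helicase and was far scarcer, gave -0.49 (SE 0.28, adjusted p 0.304) averaged. The suppliers of deoxynucleotides Rrm2 and Tyms gave -0.37 (SE 0.16, adjusted p 0.254) and -0.19 (SE 0.18, adjusted p 0.513), both lower in the knockout in each arm, though under vehicle 1 of the 2 was lower without control vehicle hearts 1 and 3.

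Both transcription factors had lower values in knockout than in control hearts under rapamycin, while under vehicle E2f1 was higher and Foxm1 slightly lower. E2f1, which raises the genes of S phase, was 20.1, 9.81, 20.9, 17.9 and 21.8 in control and 34.4, 25.85, 19.9, 38.9 and 27.7 in knockout vehicle hearts. Under rapamycin it was 33.6, 25.5, 17.96, 14.5 and 26.7 in control and 12.4, 17.2, 1.72, 8.59 and 22.7 in knockout hearts. The knockout vehicle hearts reached the highest values and knockout rapamycin heart 3 was the lowest of all. The difference was 0.68 (SE 0.43, adjusted p 0.269) under vehicle, or 0.83 without control vehicle hearts 1 and 3, and -1.12 (SE 0.43, adjusted p 0.9996) under rapamycin. Foxm1, which raises the genes of mitosis, was 15.6, 21.6, 13.9, 28.3 and 30.5 in control and 14.97, 14.6, 15.9, 28.8 and 22.5 in knockout vehicle hearts, against 13.1, 15.3, 29.2, 13.1 and 33.8 and 4.13, 7.17, 8.59, 6.87 and 19.3 with rapamycin. In the knockout rapamycin group 4 of 5 hearts lay below every other heart of the series. Its difference was -0.16 (SE 0.37, adjusted p 0.773) under vehicle, or -0.48 without that pair, and -1.15 (SE 0.37, adjusted p 0.9996) under rapamycin.

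Rapamycin against vehicle called 0 of 36 members in control hearts and 0 in knockout hearts, where 0% and 0.00738% of all genes were called (0 and 1 of 13548). Averaged over genotypes it called 0 members and 0.125% of all genes (17). At an unadjusted p under 0.05, 1 member passed in controls (2.78%, against 14.9% of all genes), 3 in knockouts (8.33%, against 5.71%) and 4 averaged (11.1%, against 9.23%). In controls 20 members were lower and 16 higher with rapamycin, with a median of -0.05 against 0.070 over all genes. That split depends in part on control vehicle hearts 1 and 3. Without them 6 of 7 spindle genes were lower (median -0.23), against 3 of 7 (0.52) with all libraries. Mki67 and Top2a were then both lower (median -0.25), where both had been higher (0.68). Of the kinase and checkpoint genes 3 of 6 were lower without that pair, against 4 of 6 with it. In knockout hearts 25 were lower and 11 higher, with a median of -0.22 against -0.016. The 1 member in controls was Mcm4, higher with rapamycin by 0.53 (SE 0.17, adjusted p 0.328), or 0.32 without control vehicle hearts 1 and 3, when 0 members passed. The count in controls was 2 or 3 without control vehicle heart 2, 3 or 5 or knockout vehicle heart 3 or 5, and that in knockouts was 5 without knockout vehicle heart 3. The 3 in knockouts were E2f1 at -1.45 (SE 0.43, adjusted p 0.404), Kif20a at -1.44 (SE 0.46, adjusted p 0.455) and Foxm1 at -1.10 (SE 0.37, adjusted p 0.499). E2f1 and Foxm1 were lower in knockout rapamycin than in knockout vehicle hearts within each of the 4 pools, with differences of -0.96, -1.003, -3.17 and -1.40 for E2f1 and -0.97, -1.60, -1.05 and -1.24 for Foxm1. Averaged over genotypes the smallest adjusted p was that of Mcm4, at 0.39 (SE 0.12, adjusted p 0.27). Without 1 library the averaged unadjusted count lay between 1 and 5, and it was 1 without knockout vehicle heart 4, control rapamycin heart 4 or knockout rapamycin heart 1 and 2 without control vehicle heart 1 or 4, knockout vehicle heart 1 or control rapamycin heart 2. Shares over all genes were not counted with libraries left out.

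The knockout difference itself was set against rapamycin in the interaction, where 0 members and 0% of all genes were called. The difference was lower under rapamycin than under vehicle for 22 of 36 members, with a median of -0.19, against 58.6% of all genes and a median of -0.087. At an unadjusted p under 0.05, 2 members passed (5.56%, against 8.3% of all genes). They were Kif20a at -1.96 (SE 0.65, adjusted p 0.523) and E2f1 at -1.81 (SE 0.61, adjusted p 0.523). They were -1.36 and -1.95 without control vehicle hearts 1 and 3. Kif20a gave -1.55 without knockout rapamycin heart 1, and E2f1 gave -1.31 without knockout rapamycin heart 3. The unadjusted count was 7 without knockout rapamycin heart 5 and 4 without control vehicle heart 5 or knockout rapamycin heart 2, and the share over all genes was not counted there. Over the 24 mitotic genes the median interaction was -0.22, with 14 lower and 0 called. Without control vehicle hearts 1 and 3 it was -0.28 for the chromosome genes Mki67 and Top2a, against -1.21 with all libraries. For the spindle genes it was -0.11, against -0.39, and for the anaphase-promoting partners -0.0046, against -0.21. The cyclin and Cdk1 group had 0.26, against 0.35, and the kinase and checkpoint group 0.029, against 0.083. Cytokinesis genes had 0.38, against 0.024.

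The spread between hearts of a group was shared by many mitotic genes. Knockout rapamycin heart 5 had the highest value of its group in 18 of 24 mitotic genes and knockout vehicle heart 4 in 17 of 24, and both were in pool 4. Knockout rapamycin heart 1 was the lowest of its group in 13 of 24 and control vehicle heart 3 in 12 of 24. The median mitotic gene, centred on its mean over all libraries, lay between -0.32 and 0.84 in control vehicle hearts and between -0.50 and 0.54 in knockout vehicle hearts. With rapamycin it lay between -0.029 and 0.71 in control hearts and between -1.06 and 0.52 in knockout hearts. Each pool held every group. Within pools 1 to 4, 17, 17, 13 and 18 of 24 mitotic genes were lower in the knockout under vehicle, and 19, 21, 20 and 20 under rapamycin. For the 10 replication genes 6, 4, 7 and 1 were lower under vehicle and 7, 9, 6 and 4 under rapamycin, with medians within pools from -0.26 to 0.28 under vehicle and from -0.17 to 0.026 under rapamycin.

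**Figure D4:**
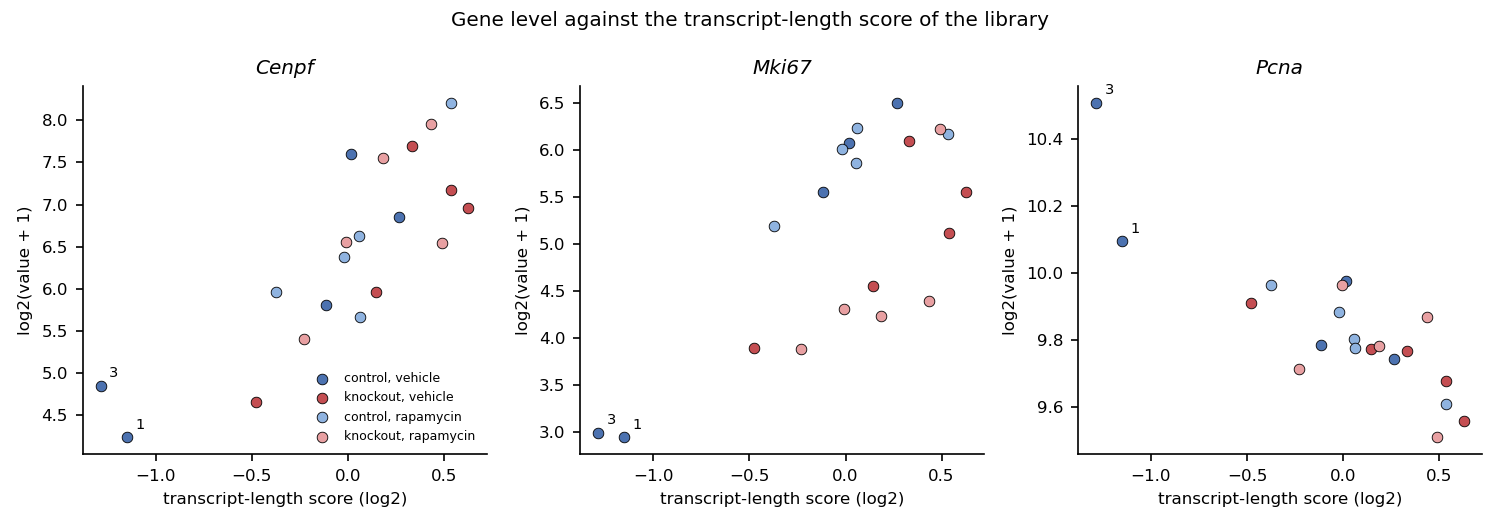
Level of Cenpf, Mki67 and Pcna as log2(value + 1) against the transcript-length score of each library, with 1 point per library coloured by group and control vehicle hearts 1 and 3 numbered. The numbered pair lies at the far left, low for Cenpf and Mki67 and high for Pcna.

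The transcript-length score moved with some members also among the other 18 libraries. Of 36 relations tested over these libraries with permutation p-values, 2 passed after Benjamini-Hochberg adjustment by Pearson's r and 3 by Spearman's rho. Cenpf was higher at a higher score (r = 0.74, permutation p = 0.00042, adjusted 0.0151, and rho = 0.72, permutation p = 0.0012, adjusted 0.0216). Pcna, whose transcript has 1518 nt, went the other way (r = -0.70, permutation p = 0.00143, adjusted 0.0257, and rho = -0.70, permutation p = 0.0014, adjusted 0.0216). The score was made from tested genes of at least 5190.6 nt and of at most 1821 nt. Cenpf is therefore among its long genes and Pcna among its short ones, so their directions are partly set by how the score is made. Without the 2 libraries farthest from the median score, r was 0.69 for Cenpf and -0.62 for Pcna. Ube2c passed by rho alone, at -0.69 (permutation p = 0.0018, adjusted 0.0216), with r = -0.63 (permutation p = 0.00501, adjusted 0.0601) and r = -0.51 without that pair. For Ccna2 r was -0.32 (permutation p = 0.195, adjusted 0.541) and rho -0.30 (permutation p = 0.231, adjusted 0.666). For Mki67 r was 0.39 (permutation p = 0.108, adjusted 0.487) and rho 0.36 (permutation p = 0.141, adjusted 0.507). Depth gave no such mark between groups: implied reads averaged 13.5 M in control and 15.6 M in knockout vehicle hearts (exact permutation test, two-sided, p = 0.333), and 15.8 M and 16.4 M under rapamycin (p = 0.778).

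Beyond the members, 138 other genes of the cycle were followed and 109 were tested. None was called in any comparison. Under vehicle 66 were lower and 43 higher in the knockout, and 31 passed an unadjusted limma p of 0.05 (28.4%, against 31.8% of all genes). Under rapamycin 81 were lower and 5 passed (4.59%, against 2.97%), and with genotype averaged 74 were lower and 19 passed (17.4%, against 19.1%). These shares, counted in both directions, are near those of all genes. The shares that passed as lower were 17.4% under vehicle, 4.59% under rapamycin and 15.6% averaged. Over all genes they were 12.1%, 1.72% and 8.73%. Over all tested members of this wider set the median averaged difference was -0.13, against 0.022 over all genes. Lower values with genotype averaged were found for 26 of 36 tested genes of mitosis, 30 of 45 of DNA replication, 6 of 8 G1 cyclins and their kinases, 4 of 6 inhibitors of those kinases and 8 of 14 pocket proteins, E2F factors and MuvB subunits. Of all tested genes 46.7% were lower in that comparison. Cdkn1b, the inhibitor p27 that holds cyclin-dependent kinases in resting cells, had the smallest adjusted p of these genes under vehicle. It was 1686 ± 226 in control and 1259.7 ± 111 in knockout vehicle hearts (SD, n = 5), a difference of -0.41 (SE 0.10, adjusted p 0.0757). It was -0.31 (adjusted p 0.66) without control vehicle hearts 1 and 3. Under rapamycin Cdkn1b was 1528 ± 169.8 and 1517 ± 104, a difference of -0.0062 (SE 0.10, adjusted p 0.9996). Cdkn1a, the inhibitor p21, varied widely between hearts, at 1749 ± 1138 and 1313 ± 603 under vehicle, and gave -0.30 (SE 0.45, adjusted p 0.651). The D cyclins carry growth signals into the cycle through Cdk4. Ccnd1 gave 0.036 (SE 0.20, adjusted p 0.911) under vehicle and -0.50 (SE 0.20, adjusted p 0.9996) under rapamycin, and Ccnd2 gave 0.50 (SE 0.21, adjusted p 0.122) and -0.20 (SE 0.21, adjusted p 0.9996). Control vehicle hearts 1 and 3 had the lowest Ccnd2 values of their group, and without them Ccnd2 gave 0.17 (adjusted p 0.865) under vehicle. Cdk4 gave -0.33 (SE 0.13, adjusted p 0.226) averaged, or -0.20 without that pair, and Rb1, the pocket protein that holds E2F, gave 0.051 (SE 0.07, adjusted p 0.652). Mybl2, a partner of FoxM1 at mitotic promoters, was not tested, with means of 3.54 ± 3.41 in control and 5.81 ± 3.425 in knockout vehicle hearts.

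Markers of other cells differed between the same groups. All 8 fibroblast markers were higher in the knockout in both arms, with medians of 0.69 and 0.27, and 2 of 8 (Pdgfra and Dcn) were called with genotype averaged. Their summed level was 22288 to 27040 in control and 28932 to 54664 in knockout vehicle hearts, and 25099 to 33594 against 32785 to 53273 under rapamycin. Of the erythroid markers 6 were tested and all were lower in the knockout in both arms, with medians of -1.64 and -0.56, and Hba-a2 and Beta-s were called lower under vehicle and averaged. The 7 erythroid genes in the table summed to 60627 to 155193 in control and 13542 to 46580 in knockout vehicle hearts, and to 38871 to 100776 against 29718 to 104672 under rapamycin. No fibroblast or erythroid marker was called without control vehicle hearts 1 and 3, when the vehicle medians were 0.58 and -1.30 with all 8 fibroblast markers higher and all 6 erythroid markers lower. Medians of the genotype difference for endothelial, pericyte and macrophage markers lay between -0.0090 and 0.12 in the 2 arms. Macrophage markers had lower values with rapamycin, 7 of 8 in control and 8 of 8 in knockout hearts, with medians of -0.30 and -0.25 and 0 called. The 3 tested lymphocyte markers had a median genotype difference of 0.29 under vehicle, with 1 lower, and of -1.20 under rapamycin, with 3 lower, and under rapamycin the 6 in the table summed to 26.2 to 90.9 in control and 18.9 to 63.4 in knockout rapamycin hearts. The 3 tested neutrophil markers had medians of -0.20 under vehicle and 0.10 under rapamycin. Atrial markers, 4 of 4 higher in the knockout under vehicle with 0 called, summed to 1358 to 6054 in control and 4141 to 61871 in knockout vehicle hearts, and to 1521 to 34775 against 8103 to 57803 under rapamycin. No marker named in these lists was at 0 in every library. The part of these cells in the differences of the cycle genes was not tested.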

How the data were processed

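Poly(A) RNA-seq libraries of 20 mouse ventricles were used, 5 per group. The authors deposited a table of gene-level signal values, which RSEM estimated and which were scaled to the upper quartile. Picard 1.64, SAMtools and build mm9 are named in the submitters' processing notes, and the aligner is not given in the sources used here. Since these values are not counts, they were taken as log2(value + 1) and fitted with limma 3.58.1 (R 4.3.3) in 1 model of 20 libraries, with a mean per group, a trend and Benjamini-Hochberg adjustment over genes with a value of at least 10 in at least 5 libraries. The threshold was an adjusted p of 0.05. The fit was tested on simulated data.

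The most frequent low value of a library, refined over its near-whole multiples, gave the value of 1 read. It was 1.12 to 2.32, which gave 11.5 to 21.1 M reads per library. Between 87.8% and 89.3% of low values were whole reads within 0.05 reads, too few to treat as recovered reads. Implied reads therefore enter 1 alternative only, and otherwise describe the depth of libraries and genes as estimates. Correlations and depth comparisons used permutation tests (100000 resamples, or exact). Values in every heart are given for 12 fixed members and the 2 members with the smallest p in each of 7 comparisons. The members and lists were chosen with earlier results of these data known. The study's design text calls the replicates biological. Alternatives were other pseudocounts, filters, scalings, a pool term, a replicate block, array weights, voom, fits of only the groups compared, libraries left out and a transcript-length covariate. Promoter sequences and transcript lengths are on GRCm38.p6, not the mm9 of the deposited values, and no coordinates were converted.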

Additional observations from a re-analysis of the deposited data

Results flagged for a closer look

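Among the 56 groups formed by the 14 genes given in every heart and the 4 groups, 2 held a heart whose gap to its nearest neighbour exceeded 0.71 of the range of its group, and chance flags about 1 in 20 groups. Mki67 was 73.86 in knockout rapamycin heart 5, against 13.75 to 20.09 in the other 4 hearts of that group (ratio 0.895). Top2a was 67.7 in knockout vehicle heart 4, against 15.9 to 29.94 in the others (ratio 0.729). These were also the hearts with the highest value of their group in 18 and 17 of 24 mitotic genes.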

How the results depend on the processing

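No member was called in any of the 7 comparisons, and in the 5 other than knockout against control under vehicle and genotype averaged this held under every alternative run. Under vehicle, leaving out 1 library gave 0 to 1 called members (Mcm4 without control vehicle heart 5, Ccna2 without knockout vehicle heart 5), and with genotype averaged it gave 0 to 1 (Ccna2). With genotype averaged, a pseudocount of 10 and median-ratio rescaling each gave 1 (Ccna2), quantile normalization and array weights each gave 2 (Ccna2 and Prc1), and the length-score covariate, chosen after seeing the data, gave 1 (Mki67). A mean of at least 100 left 8 members, and the median difference was then -0.0037 under rapamycin and -0.013 averaged, against -0.54 and -0.35. The 8 are Pcna, Mcm2 to Mcm7 and Cenpf.

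Of 50 differences of single genes, 42 kept their sign under every alternative. Under vehicle, Mki67 was -0.063 with quantile normalization, -0.36 with array weights, -1.005 without control vehicle hearts 1 and 3 and -1.17 with the covariate, and -0.24 to 0.65 with 1 library left out. Top2a was 0.0014 with a pseudocount of 0.5, 0.073 with a pool term and -0.32 to 0.31 with 1 library left out. Mcm5 was -0.14 with quantile normalization and -0.13 to 0.20 with 1 library left out. Averaged, Mcm5 was 0.00984 with array weights, 0.080 without control vehicle hearts 1 and 3, 0.075 with the covariate and -0.16 to 0.018 with 1 library left out. Under rapamycin, Mcm6 was -0.041 with a pool term, -0.079 with array weights and -0.028 to 0.12 with 1 library left out, and Pcna was 0.0020 with the covariate and -0.089 to 0.025. Averaged, Kif20a was -0.32 to 0.053 and E2f1 -0.36 to 0.028 with 1 library left out. The causes were not tested.

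With a replicate block 0 members were called in every comparison, and the median was -0.19 under vehicle, -0.54 under rapamycin and -0.35 averaged. Same-numbered hearts correlated between -0.51 and 0.43, with 10 of 30 pairs over 0.1, so the numbers were not taken as pairs. Fits of only the groups compared were run for the 4 pairwise comparisons. Depth limits the mitotic genes, most of which rest on few reads.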
